A study of Microtus ochrogaster with 40 samples.

Results

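The 215 genes described here are the vole genes whose symbol is Zfp or Znf followed by a number, apart from Zfp503 and Zfp558, and which had at least 500 unique molecular identifiers (UMIs, each standing for 1 captured RNA molecule) in total over 40 libraries. The files list 19130 genes, of which 225 carry such a symbol, and the other 10 fell short of 500 UMIs. All 215 are spelled Zfp. Among these symbols the members were selected on total UMIs, so the totals are a description. The members just inside the threshold were Zfp174 with 595 UMIs and Zfp740 with 665 UMIs, and the genes just outside it were Zfp185 with 451 UMIs and Zfp366 with 449 UMIs. Together the members held 2509191 UMIs, which is 0.709% of all UMIs.

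The libraries are single-nucleus RNA sequencing from prairie voles (Microtus ochrogaster), in the brain's nucleus accumbens. These rodents form lasting pair bonds between partners. Each animal had lived for 16 days with a partner met for the first time, either of the opposite sex (mate) or of the same sex (peer), and gave 1 library. The males comprise 11 mate and 10 peer animals, and the females 11 mate and 8 peer animals. Strain, age and genotype are not given in the sources used here. The design has no unpaired animals, so every animal had a partner. The labels do not say which animals lived together. Their running numbers fall into 20 consecutive pairs, of which 11 hold a female and a male mate, 5 male peers and 4 female peers. Tests below take animals as independent, and values by these pairs of numbers are given for the shared variation and for pairing and sex over all nuclei.

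Proteins with zinc fingers of the Cys2-His2 type fold each finger around a zinc ion and read DNA, or less often RNA, through arrays of fingers. Many of the genes named Zfp in rodents (ZNF in humans) encode KRAB zinc finger proteins, which bring the corepressor Trim28 and, through it, the histone methyltransferase Setdb1 to DNA and are best known for silencing transposable elements. The symbol is a naming convention and not a single family: Zfp36 and its relatives bind messenger RNA, Zfp451 is a SUMO ligase, and others act in splicing or at the spindle.

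A total of 178387 nuclei were kept, 1767 to 7666 per library, with 2917919 to 13002163 UMIs. The median UMIs per nucleus ran from 653 to 2158, and male mate 2 was the shallowest. Nuclei were clustered without any Zfp or Znf gene, and 12 classes were named from marker genes. Of these, 11 held at least 20 nuclei in enough animals to be described, while 14149 nuclei (7.93%) stayed unnamed. The classes with the most nuclei were D1 medium spiny neuron-like (34308 nuclei), glutamate neuron-like (32821) and D2 medium spiny neuron-like (31903). The mix differed widely between libraries. Glutamate neuron-like nuclei made up 42.6% of the library of male mate 2, the highest share, but only 0.531% of that of male peer 5, the lowest. Values over all nuclei given below sum the classes in these differing proportions, and the part of the mix in them was not tested. Medium spiny neurons are the projection neurons of the striatum, and the D1 and D2 kinds differ in their dopamine receptor. The cholinergic interneuron-like class (2307 nuclei) depended on the clustering, since only 519 nuclei bore that name at a finer resolution. There a cluster of 1794 nuclei stayed unnamed, led by Gpr101 and Gpr165, which are also leading genes of this class. Levels given for this class may therefore be those of more than 1 kind of nuclei. Some barcode sequences, 21545 of 171078, occurred in more than 1 library. In non-neuronal nuclei the summed level of 8 neuron marker genes had a median over libraries of 15.5% of its level in neurons, with a range of 9.67% in female peer 3 to 67.4% in male mate 2. No animal's nuclei were split over libraries, so the animal and its library cannot be told apart.

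Across the 11 classes most Zfp genes were spread widely. Levels below are UMIs of a gene per 1000000 UMIs of a class in an animal (CPM), averaged over animals with at least 20 nuclei of the class. They are a description with no test. Of all genes with at least 500 UMIs, 15.9% (2082 of 13072) were at least 2-fold higher in their highest class than in the next class, and 8 of the 215 Zfp genes (3.72%) were. Against the mean of all other classes the share was 45.1% of all genes (5900) and 18.6% of the Zfp genes (40). These folds were taken after adding 5 CPM, which lowers the folds of genes of low level most, and the sets were not matched for level. Among genes tested for shared variation below, the median expected count in neurons was 109 UMIs per animal for the Zfp genes. It was 313 for all genes, so the shares alone do not say that Zfp genes are spread more widely. The median log2 ratio of the highest class to the mean of the others was 0.59 for the Zfp genes and 0.90 for all genes. Of 33 genes named Zbtb, another zinc finger group that carries a BTB domain, 12 reached 2-fold over the mean of the others.

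The precursor-like and microglia-like classes were the highest for the most Zfp genes. The oligodendrocyte precursor-like class was the highest for 44 Zfp genes (20.5%, against 10.6% of all genes) and the microglia-like class for 38 (17.7%, against 13.3%). Astrocyte-like nuclei were highest for 29 (13.5%, against 11.1% of all genes), vascular-like for 25 (11.6%, against 16.4%), cholinergic interneuron-like for 17 (7.91%, against 9.23%), oligodendrocyte-like for 16 (7.44%, against 8.87%) and somatostatin interneuron-like for 15 (6.98%, against 8.38%). Glutamate neuron-like nuclei were highest for 10 (4.65%, against 7.93%), D1 for 9 (4.19%, against 5.63%), D2 for 7 (3.26%, against 4.33%) and eccentric medium spiny neuron-like for 5 (2.33%, against 4.25%). In the neuron classes 7 Zfp genes (3.26%, against 12.5% of all genes) were at least 2-fold higher than in the non-neuronal ones, and 13 (6.05%, against 15.6%) were at least 2-fold lower. The summed share of UMIs taken by the Zfp genes was 0.996% ± 0.0797 (SD, n = 39 animals) in oligodendrocyte precursor-like nuclei, 0.931% ± 0.0864 (n = 39) in astrocyte-like nuclei and 0.863% ± 0.0949 (n = 38) in microglia-like nuclei. Genes of high level weigh most in these sums, among them Zfp36l2 and Zfp36l1 in astrocyte-like and microglia-like nuclei (levels below). The sums were not taken without them, so they do not describe the Zfp genes as a group. In the other 8 classes the mean lay between 0.681% in vascular-like nuclei and 0.741%, with 0.710% in oligodendrocyte-like and 0.716% in D1 nuclei. The animals' ranges of the precursor-like class (0.846% to 1.17%) and of D1 nuclei (0.651% to 0.874%) met only at their edges.

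**Figure D1:**
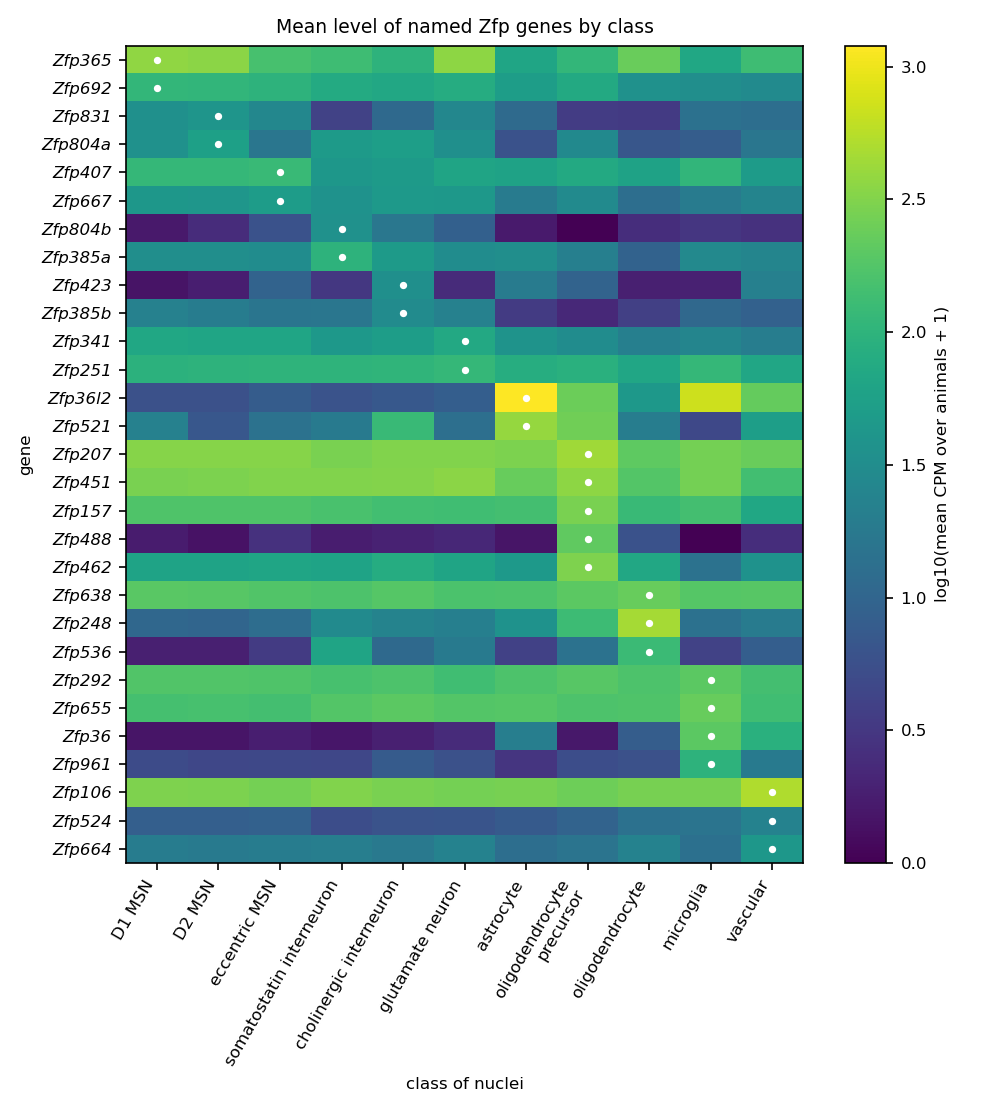
Colour gives log10 of the mean CPM over animals plus 1 for each named Zfp gene (rows) in each of the 11 described classes (columns), and a white dot marks the gene's highest class. Zfp488, Zfp248, Zfp36 and Zfp961 stand out in 1 class, while Zfp638 (1.41-fold between its highest and lowest class) and Zfp292 (1.48-fold) vary little between classes.

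The 8 genes with the most UMIs differed in how evenly they were spread. Zfp207, a spindle protein that binds the checkpoint factor Bub3, had 109038 UMIs and ranged 2.10-fold between its highest and its lowest class. Zfp638, which has been linked to silencing of unintegrated retroviral DNA, ranged only 1.41-fold, from 163 CPM in glutamate neuron-like to 229 CPM in oligodendrocyte-like nuclei. Zfp292, whose human counterpart is mutated in a neurodevelopmental disorder, ranged 1.48-fold and Zfp655 1.68-fold. Zfp106 ranged 2.02-fold and the SUMO ligase Zfp451 2.60-fold. Zfp157, with 4.26-fold, and Zfp365, with 5.76-fold, ranged more. Zfp365 encodes a protein that binds the schizophrenia-associated protein Disc1. It was at 369 CPM ± 103 (n = 40) in D1 nuclei, 360 in glutamate neuron-like, 353 in D2 and 235 in oligodendrocyte-like nuclei, but at 64.1 CPM in astrocyte-like nuclei. Its D1, D2 and glutamate neuron-like levels lay within their spread over animals, which does not decide whether they differ within the same animals.

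Zfp488 was the most class-restricted of the 215. It encodes a factor that acts with Olig2 in the differentiation of oligodendrocytes. In oligodendrocyte precursor-like nuclei the 39 animals had 94.3 CPM at the lowest, 198 at the median and 417 at the highest. In oligodendrocyte-like nuclei, the next class, the 40 animals had 0, 1.07 and 28.4 CPM. The groups did not overlap, and the means differed 42.4-fold (210 against 4.95 CPM). In microglia-like nuclei 0 of 3111904 UMIs were of Zfp488, which allows up to 0.964 CPM by counting error alone (3 counts). It was also among the leading genes of 578 nuclei named differentiating oligodendrocyte-like, a class too small in most animals to be described. Zfp462, a chromatin regulator mutated in a human developmental disorder, was the other gene that was at least 2-fold higher there than in the next class. Its CPM there was 174 at the lowest, 308 at the median and 459 at the highest of 39 animals, above cholinergic interneuron-like nuclei, where it was 35.5, 76.1 and 154. Its lowest class was microglia-like, with 13.4 CPM, a level at which the part of free RNA was not tested.

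Zfp248 and Zfp276 were highest in mature oligodendrocyte-like nuclei. The level of Zfp248 was 172 CPM at the lowest, 428 at the median and 894 at the highest of 40 animals, and 67.8, 117 and 312 in precursor-like nuclei. The ranges overlapped, but Zfp248 was higher in the oligodendrocyte-like nuclei of 39 of 39 animals with both classes. In D1 and D2 nuclei it was at 9.57 and 8.97 CPM. Zfp276 averaged 45.6 CPM ± 18.1 (n = 40) in oligodendrocyte-like nuclei, 3.97-fold its level in D2 nuclei, the next class. Zfp536, which represses neuronal differentiation, averaged 126 CPM ± 33.3 (n = 40) in oligodendrocyte-like nuclei. Its next class was somatostatin interneuron-like with 62.5 CPM ± 22.9, and D1 and D2 nuclei held 0.873 and 0.885 CPM.

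Microglia-like nuclei led 4 of the 8 genes that were 2-fold over the next class. Zfp36 encodes tristetraprolin, which binds AU-rich elements in messenger RNA and speeds its decay. Its CPM was 54.1 at the lowest, 202 at the median and 399 at the highest of 38 animals in microglia-like nuclei, and 0, 74.4 and 292 in vascular-like nuclei. The ranges overlapped, and the microglia-like level was higher in 31 of 33 animals with both. In D1 and D2 nuclei Zfp36 was at 0.506 and 0.499 CPM. Zfp961 averaged 96.2 CPM ± 48.9 in microglia-like and 17.4 CPM ± 29.7 in vascular-like nuclei. Zfp217, a transcriptional corepressor, averaged 64.7 CPM ± 34.3 in microglia-like and 12.4 CPM ± 16.1 in vascular-like nuclei. Zfp597 averaged 44.2 CPM ± 25.8 in microglia-like and 16.7 CPM ± 10.5 in cholinergic interneuron-like nuclei. These 3 rest on 309, 198 and 137 UMIs over 38 animals, and each had a microglia-like level of 0 in at least 1 animal.

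The relatives of Zfp36 that bind RNA in the same way were also low in neurons, but in other glial proportions. Zfp36l2 was at 693 CPM at the lowest, 1136 at the median and 2040 at the highest of 39 animals in astrocyte-like nuclei, and at 368, 719 and 963 in microglia-like nuclei. The ranges overlapped, with the astrocyte-like level higher in 38 of 38 animals. In the neuron classes Zfp36l2 lay between 4.75 and 7.25 CPM. Zfp36l1 was at 696 CPM ± 178 in microglia-like, 550 ± 109 in precursor-like, 517 ± 125 in vascular-like and 383 ± 99.7 in astrocyte-like nuclei. In oligodendrocyte-like nuclei Zfp36l1 was at 8.70 CPM, against 8.68 CPM in glutamate neuron-like nuclei. Of the 12 Zfp genes on a list of RNA-binding zinc finger proteins, Zfp385a was highest in somatostatin interneuron-like nuclei, with 96.0 CPM ± 26.8 against 47.0 CPM ± 23.9 in cholinergic interneuron-like nuclei. Zfp385b, its relative, was highest in the cholinergic class with 30.0 CPM ± 17.8.

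Zfp521 and Zfp423 are related transcriptional cofactors that share partners in neural and fat cell development. Zfp521 was at 395 CPM ± 82.5 in astrocyte-like, 258 ± 67.5 in precursor-like and 122 ± 42.6 in cholinergic interneuron-like nuclei. Among the medium spiny neurons its level was 21.4 CPM ± 6.84 in D1 and 5.84 CPM ± 2.48 in D2 nuclei (n = 40 each), with animal ranges of 9.91 to 39.7 and 0 to 12.1. Zfp423 was highest in cholinergic interneuron-like nuclei, with 33.4 CPM ± 19.3, followed by vascular-like and astrocyte-like nuclei with 21.3 and 18.4 CPM. In D1 nuclei it was at 0.460 CPM, a mean that rests on 33 UMIs.

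Genes led by a medium spiny class were led by little. Zfp831 was at 39.8 CPM ± 9.11 in D2 and 33.9 ± 7.64 in D1 nuclei, and higher in D2 in 35 of 40 animals. It was lowest in oligodendrocyte-like nuclei, with 2.36 CPM. Zfp804a, the vole counterpart of a human schizophrenia risk gene, was at 55.7 CPM ± 11.8 in D2 nuclei and 52.4 ± 25.1 in cholinergic interneuron-like nuclei, and at 5.02 CPM in astrocyte-like nuclei. Its relative Zfp804b was higher in somatostatin interneuron-like nuclei (34.7 CPM ± 15.3) than in cholinergic ones (15.8 ± 12.8) and had 0.611 CPM in D1 nuclei. Zfp692 in D1, Zfp407 and Zfp667 in eccentric, and Zfp341 and Zfp251 in glutamate neuron-like nuclei were between 1.00-fold and 1.09-fold over their next class. Those differences lie within the spread over animals, which does not decide a difference within the same animals. Zfp524 and Zfp664 were highest in vascular-like nuclei with 22.3 ± 24.5 and 41.4 ± 34.3 CPM, and their spread there was as large as their level or nearly so. The highest class stayed as it was for 194, 184, 187 and 209 of the 215 genes with counts pooled over animals, at the finer resolution, with doublets kept and without the shallowest library, and for all 8 genes that were 2-fold over the next class.

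The level of many Zfp genes differed between animals in neurons and in non-neuronal nuclei alike. For each animal the UMIs of a gene observed in neurons (6 classes) were divided by the UMIs expected from the mean level of each class. The mix of named classes therefore does not enter, but the mix of kinds of nuclei within a class can, and its part was not tested. The same was done in non-neuronal nuclei (6 classes), and both log2 ratios, with 1 UMI added, were centred within the 4 groups. Pearson's r between the 2 sets over 40 animals was tested by 100000 two-sided permutations of animals within groups, with Benjamini-Hochberg adjustment over 10932 genes. Of all genes tested, 48.4% (5287) were called with r above 0, and of the 177 Zfp genes with at least 5 expected UMIs in both sets, 79 (44.6%) were, none with r below 0. The other 38 Zfp genes were not tested. The median r was 0.35 for the Zfp genes and 0.36 for all genes tested, so the Zfp genes were near the background on this measure. Among genes with at least 20 expected UMIs the shares were 59.0% of all genes and 61.7% of the Zfp genes (50 of 81).

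**Figure D2:**
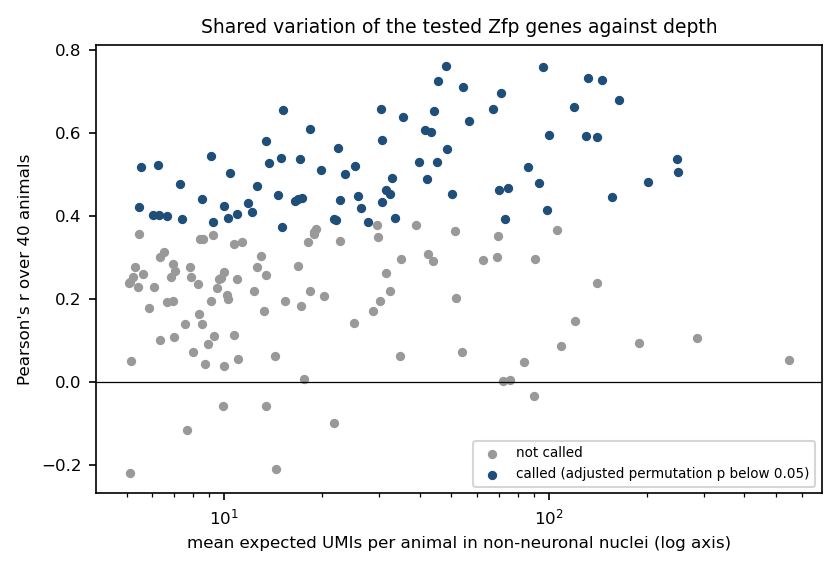
Each point is 1 of the 177 tested Zfp genes: the horizontal log axis is its mean expected UMIs per animal in non-neuronal nuclei and the vertical axis is Pearson's r over 40 animals between neurons and non-neuronal nuclei. Called genes (blue) run up to an r of 0.76, and genes that were not called (grey) occur at every depth.

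The 12 genes with the lowest p had r between 0.65 and 0.76, and 9 of them shared the smallest p that 100000 permutations can give, 1e-05. Zfp335, a part of a histone methyltransferase complex whose loss causes microcephaly in humans, had the highest r. In neurons its observed over expected ratio was 0.655 at the lowest (female mate 6), 0.988 at the median and 1.53 at the highest (male mate 2) of 40 animals. In non-neuronal nuclei it was 0.583 at the lowest, 0.991 at the median and 1.54 at the highest. The groups overlapped, and 6 of the 10 animals highest in neurons were among the 10 highest in non-neuronal nuclei, while none was among the 10 lowest. Pearson's r was 0.76 and Spearman's rho was 0.73 (adjusted permutation p = 0.000132 and 0.000166), and r without the 2 animals farthest from the median was 0.72. Within groups r was 0.75 in female mates, 0.50 in female peers, 0.82 in male mates and 0.80 in male peers.

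For Zfp329, male peer 2 had a ratio of 0.456 in neurons and 0.337 in non-neuronal nuclei, on 252 and 22 UMIs, and lay below the class median in all 11 classes. Over all animals the ratio in neurons was 0.456 at the lowest, 1.03 at the median and 1.42 at the highest. The next lowest animal was female mate 9, with 0.552 in neurons and 0.550 in non-neuronal nuclei. For Zfp329 r was 0.76, rho was 0.62 and r without the 2 farthest animals was 0.53 (adjusted permutation p = 0.000212 for r). Male peer 2 and female mate 9 are those animals.

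Zfp157 had ratios of 0.586 at the lowest (female peer 1), 0.990 at the median and 1.499 at the highest (female peer 4) in neurons. Female peer 4 was also the highest in non-neuronal nuclei, with 1.83 on 249 UMIs, and lay above the class median in 10 of 11 classes. Zfp157 had an r of 0.73 and a rho of 0.74, with r of 0.61 to 0.80 within the 4 groups (adjusted permutation p = 0.000132 over all animals). Zfp407, whose human counterpart is mutated in intellectual disability, was highest in female mate 1 both in neurons (1.39) and in non-neuronal nuclei (1.64). Its lowest animal in neurons, male mate 10 with 0.733, was below the class median in all 11 classes. The r of Zfp407 was 0.71 and its rho was 0.66 (adjusted permutation p = 0.000132 and 0.000266).

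**Figure D3:**
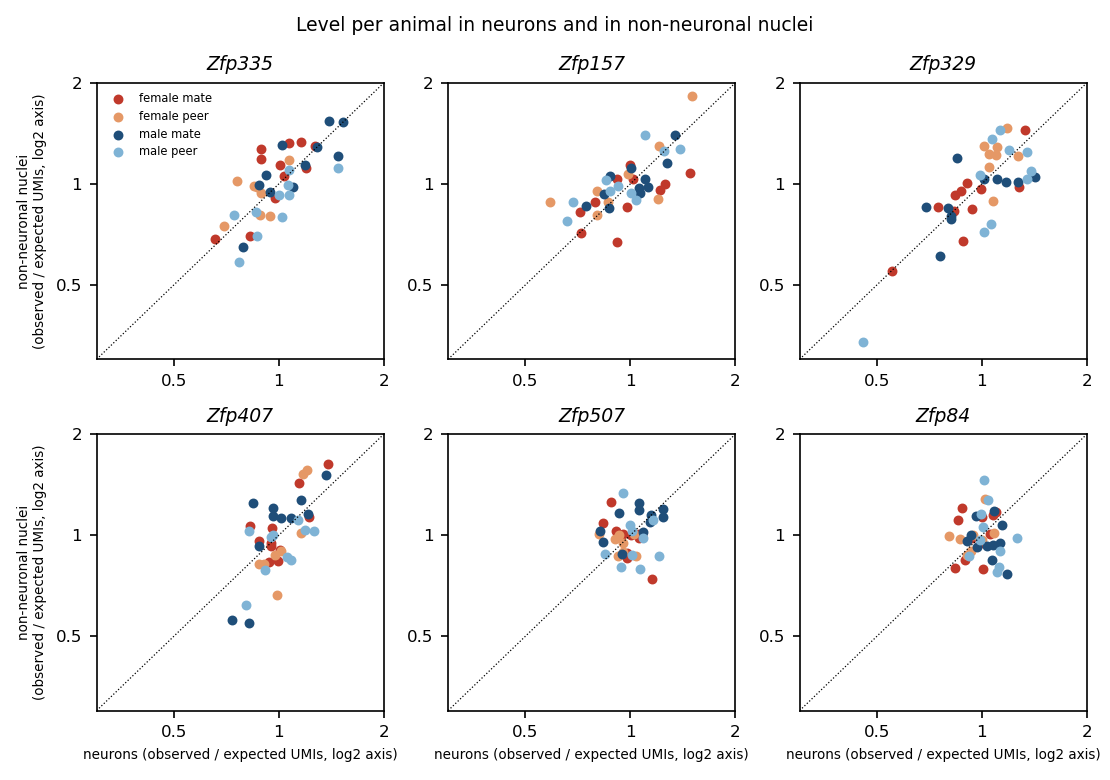
Each point is 1 animal, coloured by group: the horizontal axis is the observed over expected ratio of UMIs in neurons and the vertical axis the same ratio in non-neuronal nuclei, both on log2 axes, with a dotted line where they are equal. Animals follow the line for Zfp335 (r 0.76), Zfp157 (0.73), Zfp329 (0.76) and Zfp407 (0.71), and not for Zfp507 (-0.03) or Zfp84 (0.00).

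The other 8 of the 12 genes follow in brief. Zfp292 ranged from 0.830 to 1.34 in neurons with an r of 0.73, and Zfp638 from 0.725 to 1.30 with an r of 0.68. Zfp148, which binds GC-rich promoters, and Zfp91, a ubiquitin ligase, had an r of 0.66 each. Zfp712, Zfp280c and Zfp830 had an r of 0.72, 0.70 and 0.66, and Zfp354a, the vole counterpart of the KRAB gene Kid1, had 0.65 on a mean of 15.1 expected UMIs in non-neuronal nuclei. Without the 2 farthest animals r was lowest for Zfp354a, at 0.55, and highest for Zfp830, at 0.71.

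Free RNA from neurons in the droplets of other nuclei would carry part of a neuronal difference into non-neuronal nuclei. The share of the neuron markers had a median over libraries of 15.5%. At that share free RNA would make up 8.59% (Zfp354a) to 22.8% (Zfp407) of the non-neuronal level of these 12 genes. It was not worked out for single libraries. In male mate 2, the highest animal for Zfp335 in neurons, the share of the markers was 67.4%. The slope of the non-neuronal on the neuronal log2 deviation ran from 0.60 (Zfp157) to 1.16 (Zfp407). The part of free RNA in the shared variation was not tested. After a fit to depth, mitochondrial share and the neuron-marker level of each library, 86 Zfp genes (48.6%) and 47.3% of all genes were called. Zfp335 then had an r of 0.71, Zfp157 of 0.70 and Zfp329 of 0.76. The lowest of the 12 were Zfp830 with 0.56, Zfp280c and Zfp148 with 0.57 each and Zfp407 with 0.63, all still called (adjusted permutation p = 0.00147, 0.00106, 0.00169 and 0.000283). In neurons the ratios of Zfp830, Zfp157, Zfp280c, Zfp335 and Zfp407 ran against the mitochondrial share over the 40 animals, with r of -0.61, -0.55, -0.52, -0.49 and -0.41, which are given as a description. With blocks of 10 label numbers as a covariate, 77 Zfp genes (43.5%) and 45.8% of all genes were called. Between the 2 animals of a pair of label numbers the deviations had, as a description, a median r of 0.17 for the Zfp genes and 0.12 for all genes in neurons, and of 0.08 and 0.04 in non-neuronal nuclei. With UMIs summed over each of the 20 pairs, 50 Zfp genes (28.2%) and 32.3% of all genes were called. The only one of the 12 genes not called then was Zfp157, with an r of 0.62 (adjusted permutation p = 0.0557).

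Narrower comparisons gave other counts. Between D1 and D2 nuclei 78.6% of all genes and 107 of 185 Zfp genes (57.8%) were called with r above 0. Between D1 and astrocyte-like nuclei 20.9% of all genes and 19 of 102 Zfp genes (18.6%) were. Of the 12 genes above, 4 were not called between D1 and astrocyte-like nuclei: Zfp335 had an r of 0.37 (adjusted permutation p = 0.102), Zfp407 of 0.28 (0.231), Zfp148 of 0.17 (0.519) and Zfp91 of 0.35 (0.123). Zfp329 kept an r of 0.73 there.

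The genes with the lowest r among those with at least 20 expected UMIs in both sets were Zfp787 (-0.10), Zfp507 (-0.03), Zfp84 (0.00), Zfp131 (0.01), Zfp398 (0.05) and Zfp36l2 (0.05). Their adjusted permutation p ran from 0.635 for Zfp787 to 0.986 for Zfp84. Zfp507 had 663 expected UMIs per animal in neurons and 90.1 in non-neuronal nuclei, and the part of depth in its r was not tested. Its ratio in neurons was 0.813 at the lowest, 1.00 at the median and 1.24 at the highest animal. Those values span less than for the called genes above. Between D1 and D2 nuclei its r was 0.63 (adjusted permutation p = 0.000121). Zfp398, Zfp131, Zfp84 and Zfp36l2 were also called there, with r of 0.62, 0.50, 0.38 and 0.37, while Zfp787 had 0.15 (adjusted permutation p = 9.9e-05, 0.00205, 0.0280, 0.0327 and 0.440). Zfp36l2, which is mostly glial, had only 37.5 expected UMIs per animal in neurons against 549 in non-neuronal nuclei. Its r became 0.42 (adjusted permutation p = 0.0293) in the fit to depth, mitochondrial share and neuron markers. Without male mate 2, the shallowest library, it was 0.30, and over pairs of label numbers 0.37 (adjusted permutation p = 0.123 and 0.215).

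The spread over animals is given beside the spread that counting alone gives. The median SD of the log2 ratio over animals was 0.26 in neurons, where counting alone gives 0.15, and 0.40 in non-neuronal nuclei, where counting alone gives 0.38. The ratio has 1 UMI added, which narrows its SD at low counts, and the counting SD has none. In non-neuronal nuclei, with a median of 18.1 expected UMIs for the Zfp genes, the 2 values therefore do not measure the excess over counting. In neurons 78 of the 177 tested Zfp genes (44.1%) had an SD of more than 2 times the counting SD, against 70.2% of all genes tested. The median expected count in neurons was 109 UMIs per animal for the Zfp genes and 313 for all genes tested. The widest ranges, singled out after their values were seen, belonged to Zfp599, Zfp799 and Zfp160. Zfp799 had 0.431 at the lowest (male peer 8), 0.952 at the median and 2.12 at the highest animal (male mate 1) in neurons, an SD of 0.62 against a counting SD of 0.09. Its r with non-neuronal nuclei was 0.52 and its rho was 0.54 (adjusted permutation p = 0.00677 and 0.00482). Between D1 and D2 nuclei the r of Zfp799 was 0.89. Zfp160 reached 3.30 in female mate 1, with 114 UMIs, against a median of 0.967, and the next highest animal, female mate 3, was at 1.95. Its r was 0.50 (adjusted permutation p = 0.00398). Zfp599 had 6 UMIs in the neurons of male mate 5, a ratio of 0.164, and 114 UMIs in those of female mate 3, a ratio of 1.86. Its r of 0.48 (adjusted permutation p = 0.00882) fell short of the threshold as a rank correlation, with a rho of 0.32 (adjusted permutation p = 0.0954), and over pairs of label numbers, with an r of 0.39 (adjusted permutation p = 0.180).

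Some of these genes went up and down in the same animals. These values of r in neurons, over 40 animals and centred within groups, are a description, and the genes share libraries and depth. Zfp292 had an r of 0.77 with Zfp407 and of 0.77 with Zfp638, and Zfp638 had 0.76 with Zfp148. Zfp280c had 0.69 with Zfp329. At the other end Zfp280c had -0.36 with Zfp148. In non-neuronal nuclei Zfp292 had 0.70 with Zfp407 and 0.47 with Zfp638, Zfp638 had 0.58 with Zfp148, and Zfp280c had 0.59 with Zfp329 and 0.01 with Zfp148. The median over 15576 pairs of Zfp genes was 0.13. In RefSeq's annotation of the vole assembly MicOch1.0, 145 of the 215 genes were matched by name, and 18 lay within 2 coding genes of another. The 7 neighbour pairs that were tested had a median r of 0.15, near the median of all pairs. Names were also matched with Znf in place of Zfp, which can point at another gene. The highest pair by this matching was Zfp445 and Zfp35, at 0.38 (-0.07 in non-neuronal nuclei). These genes stand far apart in the order of the listed genes, so whether they are neighbours was not settled.

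Genes of the KRAB zinc finger corepressor pathway were read from a fixed list. Of 27 tested, 16 were called with r above 0, against the 48.4% of all genes. Trim28, the corepressor itself, and Setdb1 were not called, with r of 0.31 and 0.28 (adjusted permutation p = 0.104 and 0.161). Tasor and Tasor2, of which the first is a subunit of the HUSH silencing complex, had r of 0.72 and 0.68, and Trim33, a relative of Trim28, had 0.75. Of the lists made of Zfp genes, 5 of 9 tested genes that bind RNA and 10 of 18 tested genes of neural development or neurological disease were called. Of the Zbtb genes 12 of 28 were.

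No Zfp gene was called for the type of partner or for sex. With counts summed over all nuclei of an animal, edgeR's quasi-likelihood test called 0 of 13702 genes (0.0%) for pairing, 3 (0.0219%) for sex and 0 (0.0%) for their interaction, and 0 of the 215 Zfp genes in each. At an unadjusted p under 0.05 there were 18 Zfp genes for pairing (8.37%, against 6.93% of all genes), 13 for sex (6.05%, against 8.04%) and 4 for the interaction (1.86%, against 1.91%). DESeq2 called 0 Zfp genes as well, with 17, 12 and 4 at an unadjusted p under 0.05. With counts summed over the 20 pairs of label numbers edgeR called 0 Zfp genes for pairing (0.0% of all genes), and within the 11 pairs of a female and a male 0 for sex (0.0152% of all genes). At an unadjusted p under 0.05 there were then 10 Zfp genes for pairing (4.65%, against 5.28% of all genes) and 6 for sex (2.79%, against 4.88%). The mate minus peer log2 fold changes of the Zfp genes were small, with a median of 0.03 (0.01 with blocks of 10 label numbers and 0.04 over pairs of label numbers), an extreme of -0.35 for Zfp772 and another of 0.35 for Zfp169, and a median SE of 0.09. Of the 18 Zfp genes at an unadjusted p under 0.05 for pairing 14 were higher in mates, and with blocks of 10 label numbers 7 of 15, over pairs of label numbers 9 of 10 and by DESeq2 13 of 17 were. These directions were not counted for all genes, whose median log2 fold change was -0.00458 in the main fit. The Zfp genes share libraries, so the counts are a description and not separate pieces of evidence. In simulated counts with known 1.5-fold changes for pairing, in genes picked from all 13702, 87% of the changed genes were called. That share was not worked out for the Zfp genes, and no change below 1.5-fold was simulated. The counts of genes were drawn independently, and the classes were not simulated. It therefore does not say how small a change of a Zfp gene could be called.

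For pairing the lowest p belonged to Zfp414, Zfp335 and Zfp219. Zfp414 was at 98.0 CPM at the lowest, 147 at the median and 169 at the highest of 22 mates, and at 99.0, 129 and 162 of 18 peers. The groups overlapped, and 18 of 22 mates lay above the mean of the peers. The log2 fold change of Zfp414 was 0.18 (SE 0.06, edgeR adjusted p = 0.703, and 0.602 to 0.873 over the alternatives). Zfp335 had 49.6, 79.8 and 117 CPM in mates and 52.1, 67.5 and 106 CPM in peers. Mates exceeded peers by 0.24 on the log2 scale (0.18 to 0.26 over the alternatives), with the same edgeR adjusted p. Zfp219, a nuclear factor that works with Sox9 in cartilage, had 15.9, 21.1 and 33.9 CPM in mates and 14.2, 18.1 and 26.7 CPM in peers, a difference of 0.24 on the log2 scale, or 0.14 with blocks of 10 label numbers. For both, 16 of 22 mates lay above the mean of the peers. The highest Zfp219 levels were in male mate 1 (33.9 CPM), female mate 2 (27.5), female mate 1 (26.7), male peer 1 (26.7) and male mate 2 (26.3). These libraries bear the label numbers 1 to 5. At label numbers 1 to 5 Zfp335 was at 88.8, 106, 93.8, 117 and 106 CPM, and male mate 7, with label number 20, had 109. No fit left the libraries with label numbers 1 to 5 out together, so their part in either difference was not tested.

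For sex the lowest p belonged to Zfp655, Zfp84 and Zfp398, all with lower means in females. Zfp655 was at 135 CPM at the lowest, 154 at the median and 188 at the highest of 19 females, and at 141, 167 and 203 of 21 males. The groups overlapped, with 16 of 19 females below the mean of the males. The female minus male log2 fold change of Zfp655 was -0.14 (SE 0.04, edgeR adjusted p = 0.508, and 0.353 to 0.899 over the alternatives). Zfp84 had -0.11 (edgeR adjusted p = 0.515) and Zfp398 had -0.14 (0.588). Within the 11 pairs of label numbers of a female and a male Zfp398 had -0.09 (edgeR adjusted p = 0.902). For the interaction the lowest p belonged to Zfp790, Zfp423 and Zfp367, with edgeR adjusted p of 0.999 each. Zfp423 had medians of 3.31 CPM in female mates, 4.39 in female peers, 4.29 in male mates and 3.06 in male peers, with overlapping ranges.

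Within the 11 classes the tests covered 77766 combinations of gene and class, of which 0 (0.0%) were called for pairing and 16 (0.0206%) for sex by edgeR. Of 995 combinations with a Zfp gene, covering 196 genes, 0 were called in each, and 52 had an unadjusted p under 0.05 in each (5.23%, against 4.96% of all combinations for pairing and 5.38% for sex). DESeq2 called 0 of them too, with 51 for pairing and 38 for sex at an unadjusted p under 0.05. Zfp398 in astrocyte-like nuclei had the lowest p for pairing. It was at 65.1 CPM at the lowest, 114 at the median and 139 at the highest of 21 mates, and at 47.6, 82.6 and 118 of 18 peers. The groups overlapped, and 18 of 21 mates lay above the mean of the peers. The log2 fold change of Zfp398 was 0.38 (SE 0.10, edgeR adjusted p = 0.692, and 0.333 to 0.749 over the alternatives). Zfp335 in somatostatin interneuron-like nuclei had 26.8, 73.3 and 107 CPM in mates and 30.8, 49.2 and 85.1 CPM in peers. Its log2 fold change was 0.45 (SE 0.12, edgeR adjusted p = 0.811, and 0.172 to 1 over the alternatives). Zfp329 in astrocyte-like nuclei had 58.9, 110 and 195 CPM in mates and 57.0, 146 and 226 CPM in peers, and 19 of 21 mates lay below the mean of the peers. The log2 fold change of Zfp329 was -0.42 (SE 0.12, edgeR adjusted p = 0.692).

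**Figure D4:**
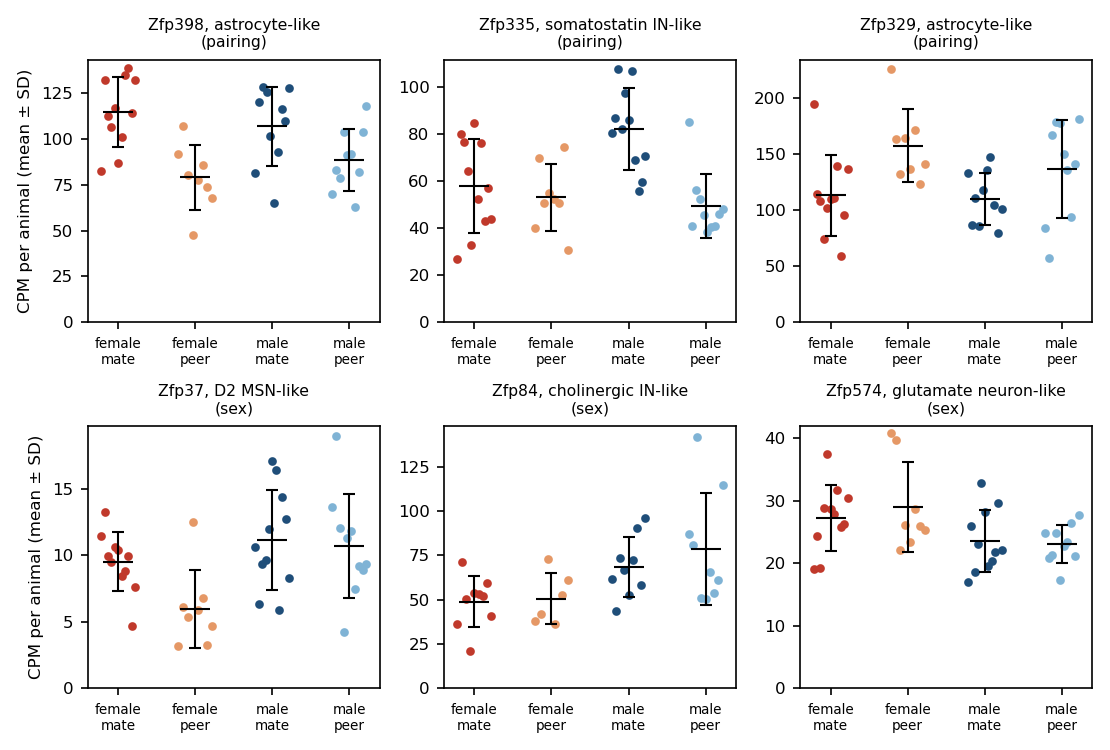
Points are CPM per animal in the named class for the 3 lowest p for pairing (top) and for sex (bottom), by group, with mean and SD as black bars. The groups overlap in every panel, and none of the 6 was called.

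For sex within classes the lowest p belonged to Zfp37 in D2 nuclei, Zfp84 in cholinergic interneuron-like nuclei and Zfp574 in glutamate neuron-like nuclei. Zfp84 had 21.1 CPM at the lowest, 52.3 at the median and 72.9 at the highest of 15 females, and 43.9, 66.0 and 142 of 18 males. All 15 females lay below the mean of the males, though the ranges overlapped. The log2 fold change of Zfp84 was -0.50 (SE 0.16, edgeR adjusted p = 0.621, and 0.642 to 0.960 over the alternatives that gave a value). At the finer resolution and with at least 50 nuclei the cholinergic class was not tested, because too few animals of a group held enough nuclei. Zfp37 had a female median of 8.43 CPM and a male median of 10.6 CPM in D2 nuclei, or -0.52 on the log2 scale (SE 0.16, adjusted p = 0.665 by edgeR). Zfp574 had medians of 26.2 and 22.7 CPM, or 0.27 on the log2 scale (SE 0.09, adjusted p = 0.554 by edgeR).

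The lists of Zfp genes and their pathway held no call either. Over all nuclei edgeR called 0 of 12 genes that bind RNA and 0 of 20 genes of neural development or neurological disease for pairing, sex or their interaction. At an unadjusted p under 0.05 these were 0, 0 and 0 of the 12, and 3, 2 and 1 of the 20, against 6.93%, 8.04% and 1.91% of all genes. Of the 27 genes of the corepressor pathway 0 were called in any, with 2, 0 and 0 at an unadjusted p under 0.05, and their mate minus peer log2 fold changes ran from -0.14 to 0.18. The median share of all UMIs taken by the Zfp genes was 0.707% in female mates and 0.686% in female peers. It was 0.727% in male mates and 0.703% in male peers. The ranges overlapped throughout (0.649% to 0.846% over all animals). The highest shares were in male mate 1 (0.846%), female mate 2 (0.834%), male peer 1 (0.829%) and female mate 1 (0.8275%). These libraries bear the label numbers 2, 3, 5 and 1. Male mate 7 came next with 0.787%, and male mate 2, with label number 4, had 0.783%. The part of label order in these shares was not tested.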

How the data were processed

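Single-nucleus libraries of 40 voles were read as the raw UMI counts per gene and barcode that the authors deposited. Cell Ranger 3.1.0 is named in the submitters' processing notes, and the genome build and annotation are not given in the sources used here. Barcodes under 500 UMIs (6375) or above 5% mitochondrial UMIs (2148) and 7608 barcodes scored as doublets (at 0.8% per 1000 barcodes) were left out. The remaining nuclei were clustered (2000 variable genes without Zfp or Znf genes, 30 principal components, 15 neighbours, Leiden resolution 1, python-igraph 0.11.9) into 27 clusters. Clusters were named from marker lists with at least 3 markers. A rule for ties between names was set after the clusters were seen. Because class names were rebuilt, they may differ from the study's.

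Counts were summed per animal and class (at least 20 nuclei) and tested with edgeR 4.0.16 (quasi-likelihood, Benjamini-Hochberg adjustment, threshold 0.05), over all genes. DESeq2 1.42.0, no filter on low counts, blocks of 10 label numbers, kept doublets, at least 50 nuclei, resolution 2 and leaving out the shallowest library were the alternatives. After the data were seen, consecutive label numbers, which the labels do not call partners, were tried as pairs (counts summed over each pair, or the pair as a block for sex). No test of pairing, sex or their interaction corrected for library depth beyond the library size and its scaling factor. Depth was a covariate only in an alternative fit of the shared variation. The scripts were tested on simulated data. Members and gene lists were chosen with earlier results of these data known. Named genes were the 8 with the most UMIs, up to 2 per class by fold over the other classes at 20 CPM or more, the 12 lowest p and 6 lowest r of shared variation, and the 3 lowest p of each contrast. Zfp217, Zfp276 and Zfp597, which complete a count, and Zfp36l1, Zfp169, Zfp772, Zfp599, Zfp799, Zfp160, Zfp445 and Zfp35 were named after their values were seen. Each animal gave 1 library, so p-values cover animal and library preparation together. RefSeq names were used for neighbours only, and no protein sequences were used here, so KRAB boxes and fingers were not counted.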

Additional observations from a re-analysis of the deposited data

Results flagged for a closer look

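In the 2 groups of 10 or fewer animals, 84 sets of observed over expected ratios were searched for an animal far from the others, and 5 held one. Chance gives about 5% of sets when genes are not chosen by their values. These genes were chosen so: they are those named for shared variation, with Zfp599, Zfp799 and Zfp160. That rate is therefore no measure for them. Zfp335 in neurons was at 1.48 in male peer 1 (276 UMIs), with the next male peer at 1.07. Zfp329 in neurons was at 0.456 in male peer 2 (252 UMIs), below the next male peer at 0.991. Zfp84 in non-neuronal nuclei was at 1.28 in female peer 1 (40 UMIs), with the next female peer at 1.01. Zfp36l2 in neurons was at 1.90 in male peer 1 (27 UMIs), with the next at 1.30. Zfp599 in neurons was at 1.79 in male peer 5 (116 UMIs), with the next at 1.07. Male peer 1 was the library with the fewest nuclei (1767), and female peer 1 had the highest median mitochondrial share (0.719%). The part of either in these values was not tested.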

How the results depend on the processing

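Counts of Zfp genes called for pairing, sex or their interaction were 0 under every alternative run for each. For shared variation the count of 79 was within 1.5 times under 9 of 12 alternatives. It was 50 over 20 pairs of consecutive label numbers, an alternative chosen after seeing the data that has fewer units. With at least 20 expected UMIs, where fewer genes were tested, it was also 50. Between D1 and astrocyte-like nuclei, where the classes, the UMIs and the genes tested all differ, it was 19. What lowered these counts was not tested. Without the shallowest library the count was 87. Genes of low r changed sign. Zfp787 had 0.0044 with doublets kept, 0.0427 between D1 and astrocyte-like nuclei and 0.15 between D1 and D2 nuclei. Zfp507 had 0.0329 with blocks of 10 label numbers, 0.0533 with doublets kept, 0.0439 over pairs of label numbers and 0.63 between D1 and D2 nuclei. Zfp84 had -0.0023 by plain log2 CPM, -0.0119 with blocks, -0.0014 at resolution 2 and -0.0312 between D1 and astrocyte-like nuclei. Zfp131 had -0.0014 with 5 UMIs added, a rho of -0.0823, -0.0108 with the fit to depth, mitochondrial share and neuron markers, -0.0380 without the shallowest library and -0.26 between D1 and astrocyte-like nuclei. Zfp398 had -0.0513 without the shallowest library. Zfp36l2 had -0.23 by plain log2 CPM, -0.10 with blocks and -0.34 between D1 and astrocyte-like nuclei. Of these changes of sign only that of Zfp507 between D1 and D2 nuclei passed the threshold, and the cause was not tested. Zfp398, Zfp131, Zfp84 and Zfp36l2 were also called between D1 and D2 nuclei, with no change of sign. Over all genes, no filter on low counts gave 8 calls for pairing and 41 for sex within classes, DESeq2 gave 23 for sex within classes and 5 over all nuclei, blocks gave 2 and leaving out the shallowest library 2 for sex over all nuclei. The labels give no replicate numbers: those used here follow the order of deposit and only name animals, though female and male mates of the same number are also those with consecutive label numbers. The fits by consecutive label numbers were not run within classes or for the interaction. Few UMIs limit the vascular-like and microglia-like classes most, where the median animal had 49800 and 74772 UMIs.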

Other observations

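The unnamed clusters also held Zfp genes. These values are descriptions with no test. In a cluster of 3085 nuclei led by Vip, a neuropeptide of interneurons, and by Crabp1 and Htr3a, Zfp536 was at 93.0 CPM at the lowest, 142 at the median and 225 at the highest of 39 animals. Its highest described class, oligodendrocyte-like, had a mean of 126 CPM, against 149 CPM in this cluster. Zfp608, one of the genes of neural development, averaged 228 CPM ± 45.8 (n = 39) there. In its highest described class, precursor-like nuclei, it averaged 200.02 CPM ± 50.1 (n = 39). The difference lies within the spread over animals, and it was not taken within each animal. In a cluster of 2531 nuclei led by Pvalb, the calcium-binding protein of fast-spiking interneurons, Zfp385a averaged 141 CPM ± 58.9 (n = 40), against 96.0 CPM in somatostatin interneuron-like nuclei. Sst and Chat were also among the leading genes of that cluster.

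A cluster of 5746 nuclei was led by Igfbpl1 and by the cell cycle genes Mki67, Bub1 and Cenpf. Zfp704 averaged 36.0 CPM ± 18.0 (n = 39) in it, against a highest described class of cholinergic interneuron-like nuclei with 20.6 CPM. Zfp608 averaged 193 CPM ± 62.6 and Zfp219 81.6 CPM ± 35.5 in that cluster. Zfp219 was at 103 CPM ± 31.8 in astrocyte-like nuclei, its highest described class. In the same cluster Zfp397 averaged 54.8 CPM ± 30.4 against 37.2 CPM in astrocyte-like nuclei.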
